A study of Mus musculus with 4 samples.

Results

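Interleukin-17A, interleukin-17F and interleukin-22, with 6 genes that mark or drive the cells making them, were followed across 4 RNA sequencing libraries of mouse skin cells labelled as regulatory T cells. The genes were Il17a, Il17f, Il22, Il23r, Rora, Il1r1, Ccr6, Il17re and Tmem176b. They were taken by name, and all 9 were found among the 55487 genes of the deposited tables. All mice had psoriasiform dermatitis, induced on shaved back skin by a daily 60 mg of Aldara cream with 5% imiquimod, so the control libraries carry this treatment too. The non-UVB group comprised 2 libraries without irradiation, and the UVB group comprised 2 libraries from mice given 3 exposures to narrow-band ultraviolet B. Libraries were numbered 1 and 2 within each group, and the labels do not say what a shared number stands for. The sources used here give no strain, age, sorting gate or pooling of animals. Whether each library is a separate animal is not said either, and p-values therefore cover the spread between libraries alone, which may be technical.

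Interleukin-17A and interleukin-17F are paired cytokines of type 17 lymphocytes, the T helper 17 cells, gamma-delta T cells and innate lymphoid cells that drive imiquimod dermatitis and psoriasis. Interleukin-1 and interleukin-23 from myeloid cells act on these lymphocytes through Il1r1 and Il23r, and the orphan nuclear receptor encoded by Rora helps to switch on the cytokine genes. The cytokines then act on keratinocytes, which answer with antimicrobial proteins and neutrophil chemokines.

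Because the Rora product binds DNA at the letters AGGTCA, the 250 bases before the RefSeq transcription starts of the 9 genes (GRCm38.p6) were searched for this core on both strands. The search also took the palindromes TTCNNNGAA, bound by STAT factors, and TGANTCA, bound by AP-1. All 9 genes matched RefSeq entries by symbol, with 13 starts in all. AGGTCA or its complement TGACCT was found at 4 of the 13 starts, against 14.0% of the 32851 starts in the mouse table. It lay before the starts of Il17a, Il17f, Il23r and Ccr6, which are shown here with all 3 motifs in capitals, read 5′ to 3′ on the gene's own strand. Il17a lies at chr1:20730655-20730904 on the plus strand, Il17f at chr1:20784271-20784520 on the minus strand, Il23r at chr6:67491856-67492105 on the minus strand and Ccr6 at chr17:8235793-8236042 on the plus strand.
Il17a: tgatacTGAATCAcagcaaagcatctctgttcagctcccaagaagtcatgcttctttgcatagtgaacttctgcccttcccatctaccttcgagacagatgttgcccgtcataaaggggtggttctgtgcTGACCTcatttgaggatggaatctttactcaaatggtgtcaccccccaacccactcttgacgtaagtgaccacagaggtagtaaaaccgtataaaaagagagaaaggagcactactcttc
Il17f: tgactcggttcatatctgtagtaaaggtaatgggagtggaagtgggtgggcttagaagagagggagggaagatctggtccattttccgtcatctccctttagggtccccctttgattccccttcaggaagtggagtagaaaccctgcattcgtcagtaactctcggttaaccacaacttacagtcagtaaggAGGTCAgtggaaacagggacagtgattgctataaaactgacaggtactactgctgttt
Il23r: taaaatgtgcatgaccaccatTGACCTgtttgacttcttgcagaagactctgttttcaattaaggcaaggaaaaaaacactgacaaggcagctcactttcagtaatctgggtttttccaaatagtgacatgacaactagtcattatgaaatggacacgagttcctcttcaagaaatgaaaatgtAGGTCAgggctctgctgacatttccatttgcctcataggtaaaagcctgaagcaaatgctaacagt
Ccr6: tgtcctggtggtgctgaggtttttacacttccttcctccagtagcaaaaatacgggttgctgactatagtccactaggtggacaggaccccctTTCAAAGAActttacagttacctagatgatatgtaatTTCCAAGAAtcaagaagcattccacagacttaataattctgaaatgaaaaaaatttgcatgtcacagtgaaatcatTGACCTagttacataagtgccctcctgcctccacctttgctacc
Counted from the start, the core began at base -120 of Il17a, -58 of Il17f, -229 and -66 of Il23r and -44 of Ccr6. The Il17f window lies inside the span of the gene, because a longer annotated transcript starts further upstream. The AP-1 palindrome was found in the Il17a sequence alone, against 6.75% of all starts. The STAT palindrome was found in the Ccr6 sequence alone, at bases -157 and -120, against 7.02% of all starts. The other 9 starts, which include those of Il22, Rora and Il1r1 and another start of Ccr6, held none of these letters in the window. Windows of the Tmem176b starts, also among the 9, overlap in part. A match describes letters only, and binding was not measured.

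The libraries also differed between the numbers in depth and in markers of cell types. The FPKM values rested on the equivalent of 3.41 and 4.20 gigabases of reads of 100 bp in replicate 1 (non-UVB, then UVB), and of 2.47 and 2.38 gigabases in replicate 2. Foxp3, which defines regulatory T cells, was listed at 0 TPM (transcript level scaled to gene length and to the total of the library) in non-UVB replicate 1, against 3.49 TPM in UVB replicate 1 and 19.4 and 19.3 TPM in the libraries of number 2. The 9 markers of gamma-delta T cells summed to 10770 and 10243 TPM in libraries of number 1 and to 179 and 309 TPM in libraries of number 2, non-UVB first. The 6 markers of regulatory T cells summed to 803 and 1129 TPM against 4158 and 3428 TPM. The 6 alpha-beta and CD4 T cell markers went both ways, with 3 on average higher and 3 lower under number 1. Cd4 had 6.02 and 33.9 TPM against 138 and 71.6 TPM, and Trac 274 and 554 TPM against 2350 and 878 TPM. Cd3e was higher under number 1, at 735 and 509 TPM against 255 and 189 TPM. For 5 keratinocyte markers the sums were 144 and 282 TPM, then 2649 and 1960 TPM, and for 8 macrophage and dendritic cell markers 9086 and 15493 TPM against 4354 and 9164 TPM. The macrophage and dendritic cell sums overlapped between the numbers and were higher with UVB within each number. The share of TPM from haemoglobin genes was 11.7% for non-UVB replicate 1 and at most 0.441% elsewhere. Mitochondrial genes took 0.857% and 0.487% of TPM in libraries of number 1 and 5.73% and 6.42% in libraries of number 2, non-UVB first. More genes reached 1 TPM with UVB, at 10317 and 10227 (replicate 1, then 2), than without it, at 7825 and 8033. The part of these differences in the results was not tested, and fewer cells of a type and less RNA per cell cannot be told apart in bulk libraries.

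The cytokine transcripts were abundant, above all under number 1. Il17f (ENSMUSG00000041872, chromosome 1, 20777146 to 20790617, GRCm38) had, non-UVB first, 14539 and 13761 TPM under number 1 and 1742 and 1601 TPM under number 2. It ranked 7 and 3 among all genes under number 1 and 63 and 62 under number 2. Il17a (ENSMUSG00000025929, chromosome 1, 20730905 to 20734496) had 2330 and 1995 TPM in libraries of number 1 and 904 and 799 TPM in libraries of number 2. Its neighbour on the chromosome thus stood further apart between the numbers, by 8.34-fold without UVB and 8.60-fold with it, against 2.58-fold and 2.50-fold for Il17a. Il22 (ENSMUSG00000074695, chromosome 10, 118204942 to 118210047), whose product acts on epithelial cells such as keratinocytes, had 2605 and 1648 TPM against 204 and 323 TPM. For all 3 cytokine genes both libraries of number 1 lay above both libraries of number 2, while the UVB and non-UVB libraries overlapped. Together the 3 genes took 1.95% and 1.74% of TPM in libraries of number 1 and 0.285% and 0.272% in libraries of number 2.

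**Figure D1:**
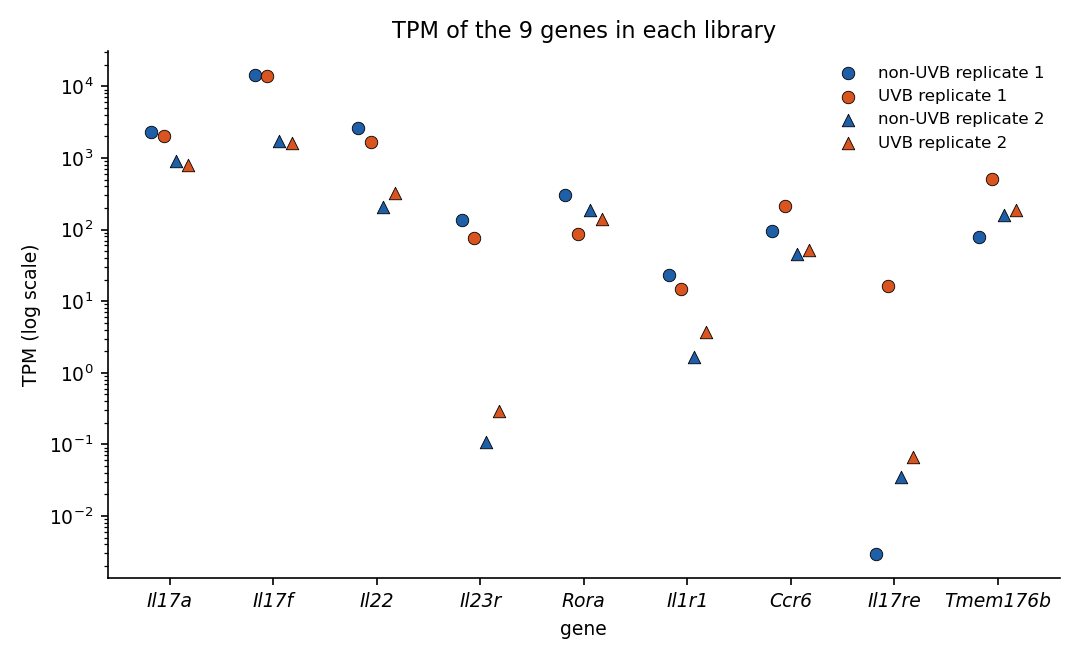
TPM of the 9 genes on a log axis, with each library as 1 point, colour for UVB or non-UVB and shape for the replicate number. Circles (replicate 1) lie above triangles (replicate 2) for Il17a, Il17f, Il22, Il23r, Il1r1 and Ccr6, while Il17re stands out in UVB replicate 1, at 16.3 TPM.

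How far Il17f exceeded Il17a depended on the deposited measure. By TPM, Il17f stood at 6.24 and 6.90 times Il17a in replicate 1, non-UVB first, and at 1.93 and 2.003 times in replicate 2. By deposited coverage, the mean number of reads over each base of a gene, the ratio was 1.62 and 1.80 in libraries of number 1 and 0.502 and 0.521 in libraries of number 2, so the order of the pair turned in the latter. Il17a has 1 transcript in GENCODE M21, as do Il22 and Il23r, and for these 3 genes FPKM and coverage scaled to depth were in a ratio of 1 in each library. Il17f has 4, of 590 to 1178 bp, and its FPKM was 3.84 times its scaled coverage in each library. The other 5 genes, with 3 to 12 transcripts, differed by factors that varied between libraries, up to 22.9 for Rora in UVB replicate 1. The cause of these factors was not tested. Levels of those 6 genes relative to other genes are read with this limit, and for Il17f the factor was alike in all 4 libraries.

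**Figure D2:**
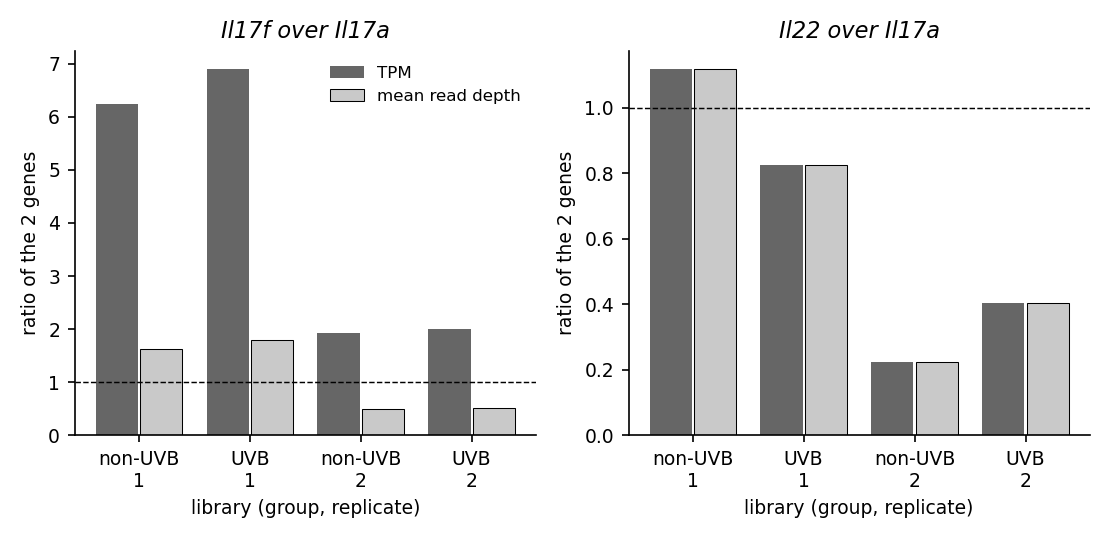
Ratio of Il17f to Il17a (left) and of Il22 to Il17a (right) in each library, from TPM (dark bars) and from mean read depth (light bars), with a dashed line at 1. For Il17f the bars differ by measure, at 6.24 against 1.62 in non-UVB replicate 1, and both are higher in replicate 1 than in replicate 2, while for Il22 they coincide.

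Il22 was measured beside a near-identical copy. Iltifb (chromosome 10, 118289629 to 118295038) aligned with the Il22 transcript over 1110 bases at 97.4% identity, with 29 mismatches. It had 315 and 219 TPM in libraries of number 1 and 24.9 and 32.7 TPM in libraries of number 2. Il22 stood at 8.28 and 7.54 times its copy in the former and at 8.19 and 9.87 times in the latter. No source used here says how reads matching both genes were assigned, and the share of each is uncertain. Within the numbers, Il22 stood at 0.632 times its non-UVB level with UVB in replicate 1 and at 1.59 times in replicate 2, a split in direction.

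Il23r and Il1r1, which receive interleukin-23 and interleukin-1, had their higher values under number 1. Il23r (ENSMUSG00000049093, chromosome 6, 67422932 to 67491855), the interleukin-23 receptor chain of type 17 lymphocytes, had 138 and 76.4 TPM in replicate 1, non-UVB first, and 0.108 and 0.290 TPM in replicate 2. From its coverage and its 2488 bp transcript, these values equal about 7744 and 5160 reads against 4.62 and 11.8 reads. Few reads thus covered Il23r in the libraries where Il17a was still at 904 and 799 TPM. Il1r1 (ENSMUSG00000026072, chromosome 1, 40225080 to 40317257), the signalling receptor for interleukin-1, was lower, with 23.1 and 14.8 TPM against 1.67 and 3.69 TPM. Mean read depth over Il1r1 was 11.7 and 4.19 in libraries of number 1 and 0.738 and 1.64 in libraries of number 2, so the latter rest on shallow cover. Il1r2, a decoy receptor for interleukin-1, did not share this split, at 963 and 754 TPM against 647 and 1152 TPM.

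Rora (ENSMUSG00000032238, chromosome 9, 68653786 to 69388246), a nuclear receptor that promotes the type 17 programme, showed no split by number. Without UVB it was at 302 TPM (replicate 1) and 190 TPM (replicate 2). In the irradiated libraries it was at 86.9 and 143 TPM, so the UVB libraries lay below both non-UVB libraries. By coverage scaled to depth, the values were 9.40 and 8.41 without UVB and 2.45 and 9.01 with UVB, and the groups overlapped. The lower TPM in UVB replicate 2 than in non-UVB replicate 2 thus was not seen in the reads over the gene as a whole.

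Ccr6 (ENSMUSG00000040899, chromosome 17, 8236043 to 8257141), the chemokine receptor that brings type 17 cells to skin, had 95.4 and 210 TPM in replicate 1, non-UVB first, and 45.3 and 52.3 TPM in replicate 2. The libraries of number 1 did not overlap libraries of number 2, and the value was higher with UVB within each number, by 2.20-fold and 1.16-fold. Ccl20, which encodes its ligand, had 76.2 TPM in non-UVB replicate 1, 56.5 TPM in UVB replicate 2 and 0 elsewhere. Tmem176b (ENSMUSG00000029810, chromosome 6, 48833818 to 48841496), an ion channel gene expressed in type 17 and myeloid cells, was at 79.1 (replicate 1) and 160 TPM without irradiation, against 502 and 185 TPM after it. The UVB libraries lay above the non-UVB libraries, with a wide gap in libraries of number 1 (6.35-fold) and a narrow one in libraries of number 2 (1.16-fold). The summed level of macrophage and dendritic cell markers, given above, was likewise higher with UVB within each number, though Csf1r (240 against 107 TPM) and Cd14 (764 against 649 TPM) were lower with UVB under number 1. Lyz2, at 1325 TPM without and 4391 TPM with UVB there, is 1 of these markers, and their part in the Tmem176b values was not tested.

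Tmem176b overlaps Tmem176a (48840919 to 48847071) on the opposite strand. No source used here states whether the libraries kept strand, and reads in the overlap cannot be assigned. Tmem176a had 117 and 229 TPM in libraries of number 1 and 65.8 and 75.4 TPM in libraries of number 2. Il17re (ENSMUSG00000043088, chromosome 6, 113458484 to 113470758), a receptor subunit for interleukin-17C, had 16.3 TPM in UVB replicate 1 and between 0.00296 and 0.0661 TPM in the other 3 libraries. Mean read depth over Il17re was 21.6 in the former and at most 0.0541 in the latter, so a single library carried this gene and no fold is given. It was the only gene of the 9 below the filter of the test, which asked for at least 1 TPM in at least 2 libraries.

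The comparison of UVB with non-UVB libraries asked whether irradiation altered these genes. None of the 8 tested genes passed the test against the spread between libraries. The largest differences, on the log2(TPM + 1) scale, were 1.43 ± 0.74 (SE, n = 2 per group) for Tmem176b and -1.10 ± 0.54 for Rora, with limma adjusted p-values of 0.728 and 0.695. The Tmem176b difference was 0.72 when UVB replicate 1 was left out, 0.93 when non-UVB replicate 1 was, and 2.15 when UVB replicate 2 was. Il17a stood at -0.20 ± 0.73, Il17f at -0.10 ± 1.57, Il22 at 0.00 ± 1.59 and Il23r at -0.31 ± 3.43, each with a limma adjusted p of 0.9998. Il1r1 stood at 0.10 ± 1.67 and Ccr6 at 0.67 ± 0.95, with values overlapping between the groups. The fit held no term for the number, so these SEs take in the difference between the numbers. With a replicate block the differences were the same. The SE was then 0.188 for Il17a, 0.118 for Il17f, 0.459 for Il22, 1.10 for Il23r, 1.13 for Il1r1 and 0.598 for Ccr6. For Rora and Tmem176b it was 0.580 and 0.824, and no gene passed. Over 10286 genes limma made 0 calls after adjustment (0%), while 11.3% of genes, and 0 of these 8, stood under 0.05 before it. Libraries did not overlap and UVB was higher for 1 of the 8 genes, Tmem176b, against 23.2% of all genes tested. Libraries did not overlap and UVB was lower for 1, Rora, against 9.71%.

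Within both numbers, Il17a, Il17f and Rora were lower with UVB (3 of 8, against 17.7% of all genes) and Ccr6 and Tmem176b were higher (2 of 8, against 34.0% of all genes). For Il17a the UVB library stood at 0.856 and 0.884 times the non-UVB library of the same number, and for Il17f at 0.947 and 0.919 times. The median difference of the 8 genes was -0.05, beside 0.26 for all genes tested. Leaving out 1 library turned the sign of 6 of the 8 differences and kept that of Rora and Tmem176b. Such a fit leaves the groups unequal in the numbers, so the difference between the numbers enters that of UVB. The turned signs therefore cannot show whether the UVB differences themselves are unstable. An exact two-sided permutation test of 2 against 2 libraries cannot give a p below 0.333.

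The comparison of the numbers asked whether libraries of equal number shared levels of these genes. Libraries of number 1 lay above libraries of number 2 without overlap for 6 of the 8 tested genes, against 18.5% of all genes, and below them for none, against 22.5%. The genes were chosen with earlier results of these data known, so an excess over the share of all genes is a description and not a test. The difference was 3.08 ± 0.15 log2 for Il17f (SE, n = 2 per number), 3.01 ± 0.40 for Il22, 1.34 ± 0.21 for Il17a, 6.44 ± 1.07 for Il23r, 2.46 ± 1.12 for Il1r1 and 1.52 ± 0.59 for Ccr6, the last of which was 0.96 without UVB replicate 1. In TPM, Il17f averaged 14150 ± 550 in libraries of number 1 and 1672 ± 100 in libraries of number 2 (SD, n = 2), and Il17a 2162 ± 237 and 852 ± 74.0. None passed limma's test adjusted over 10286 genes, where Il17f had an adjusted p of 0.224 and Il17a, Il22 and Il23r one of 0.238. Unadjusted p-values under 0.05 were given for these 4 of the 8, against 12.5% of all genes, and limma called 0 genes (0%) after adjustment. After quantile normalization Il17f passed (adjusted p = 0.0345), among 13 genes called. All 9 gamma-delta T cell markers, among them Trdc, were likewise higher under number 1 without overlap, against 18.5% of all genes. Of these markers, Sox13, Blk and Cd163l1 are also on the pathway lists described below. The part of the markers in these differences was not tested. Rora stood at -0.02 ± 0.74 and Tmem176b at 0.21 ± 1.01, and without UVB replicate 1 both turned sign, to 0.87 and -1.11.

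**Figure D3:**
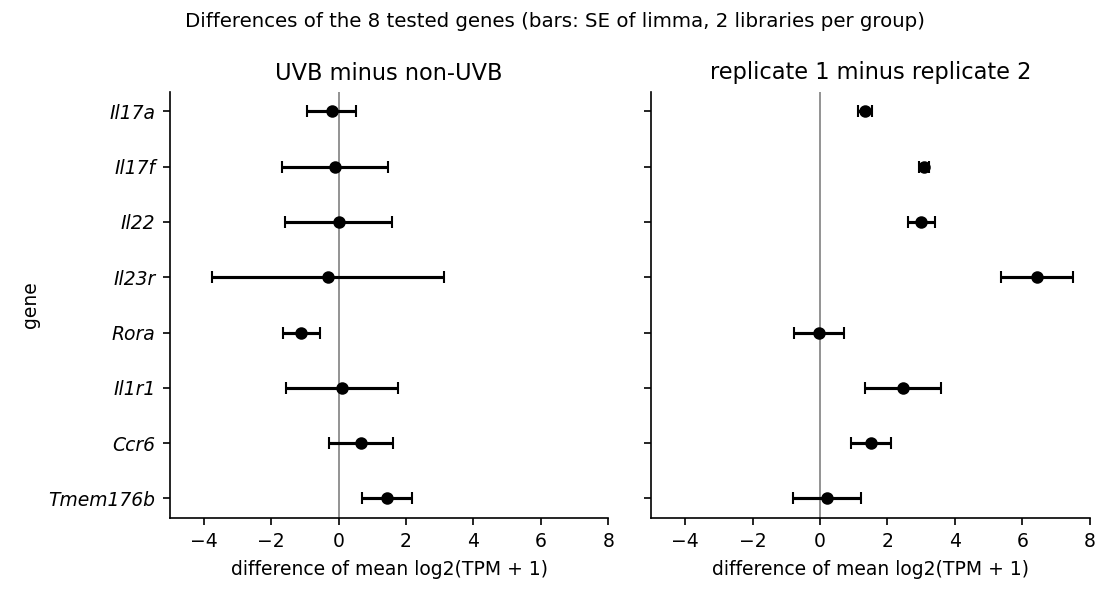
Differences of mean log2(TPM + 1) for the 8 tested genes, UVB minus non-UVB on the left and replicate 1 minus replicate 2 on the right, with bars for the SE of limma from 2 libraries per group. On the left the 3 cytokine genes sit at 0 within their bars, and on the right they lie between 1.34 and 3.08 with short bars.

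Of genes with at least 100 TPM on average, 1446 in all, those with the pattern most like Il17a over the 4 libraries were Cd48, Lcp1, Cd3g, Birc3 and Cd3e. Likeness was the Euclidean distance between log2 profiles centred on their own means, here 0.18 to 0.31. Cd3g and Cd3e encode chains of the CD3 complex of all T cells, Cd48 and Lcp1 a surface ligand and an actin-bundling protein of leukocytes, and Birc3 an inhibitor of apoptosis. Cd3g had 2560 and 2701 TPM in libraries of number 1 and 968 and 848 TPM in libraries of number 2. By TPM, Il17a relative to Cd3g was thus at 0.910 and 0.738 in libraries of number 1 and at 0.934 and 0.943 in libraries of number 2, a likeness that the choice of Cd3g fixes. By coverage, the ratio was 2.94 and 2.38 in libraries of number 1 and 3.11 and 3.01 in libraries of number 2. Whether Il17a lay below or above Cd3g therefore depended on the measure. By TPM, Il17f relative to Cd3g was at 5.68 and 5.09 against 1.80 and 1.89, and Il22 at 1.02 and 0.610 against 0.211 and 0.381. By coverage, Il17f was at 4.77 and 4.27 against 1.56 and 1.57, and Il22 at 3.28 and 1.96 against 0.701 and 1.22. Because Cd3g was chosen for its likeness to Il17a, these ratios largely repeat those of Il17f and Il22 to Il17a. The delta chain gene Trdc of gamma-delta T cells, at 1394 and 1184 TPM against 48.5 and 71.6 TPM, stood further apart between the numbers than Il17a, and Il17a per Trdc was 1.67 and 1.69 in libraries of number 1 and 18.7 and 11.2 in libraries of number 2.

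The patterns most like Il22 were those of its copy Iltifb, at a distance of 0.26, and of Pdia4, Dpm1, Hspa5 and Tceal9, at 0.56 to 0.84. Pdia4 and Hspa5 encode folding factors of the endoplasmic reticulum and Dpm1 a subunit of the enzyme that makes the mannose donor for glycosylation there. Hspa5 had 3817 and 2208 TPM in libraries of number 1 and 284 and 867 TPM in libraries of number 2. With 4 libraries such likeness is a description only.

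Other genes of the pathway were taken from 7 lists of 83 genes, of which 62 were tested. None passed limma's adjusted test for UVB or for the number. For the number, 14 of the 62 were higher in libraries of number 1 without overlap and 11 were lower, beside 18.5% and 22.5% of all genes. For UVB, 16 were higher without overlap and 5 lower, beside 23.2% and 9.71% of all genes.

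Among type 17 transcription factors, 3 of 13 tested genes were higher in libraries of number 1 without overlap and 3 were lower. The shares of all genes were 18.5% and 22.5%, and the list's median difference was -0.17. Sox13, a factor of gamma-delta T cells that make interleukin-17, had 147 and 40.4 TPM in libraries of number 1 and 0.302 and 0.0773 TPM in libraries of number 2. It is also on the list of gamma-delta T cell markers. Batf, an AP-1 family factor needed for T helper 17 cells, went the other way, with 526 and 545 TPM against 878 and 1050 TPM. Bhlhe40 had 340 and 147 TPM against 226 and 282 TPM, with overlap. For UVB, the list's median was -0.22, and 4 of 13 were higher without overlap, against 23.2% of all genes.

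Other products and surface genes of type 17 lymphocytes held 10 tested genes, of which 6 were higher in libraries of number 1 without overlap and none lower. The shares of all genes were 18.5% and 22.5%, and the list's median was 1.27. Blk, a Src-family kinase of these gamma-delta T cells, had 254 and 254 TPM against 0.649 and 0.545 TPM, and Cd163l1, a scavenger receptor of the same cells, had 511 and 419 TPM against 0.624 and 4.42 TPM. Both are also on the list of gamma-delta T cell markers. Cxcr6, a chemokine receptor of tissue-resident T cells, had 3557 and 2499 TPM against 414 and 132 TPM. Ltb, which encodes lymphotoxin beta, had 249 and 381 TPM against 343 and 469 TPM. Klrb1c was listed at 0 in all 4 libraries, and Csf2 had 125 and 2.15 TPM under number 1, was listed at 0 in non-UVB replicate 2 and had 72.9 TPM in UVB replicate 2.

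Of 8 inducing cytokine genes, 4 were listed at 0 throughout. Il23a and Il12b, the subunits of interleukin-23, Il6 and Il18 were these 4. Il1b, which encodes interleukin-1 beta, was abundant, at 886 and 698 TPM in libraries of number 1 and 484 and 465 TPM in libraries of number 2, a difference of 0.73 with a limma adjusted p of 0.394. Il36g, an epithelial interleukin-1 family cytokine, had 14.8 and 72.2 TPM after irradiation, against 0 and 0.261 TPM without it, a difference of 4.92 with a limma adjusted p of 0.252. Tgfb1 was at 84.9 and 68.0 TPM without irradiation, against 76.1 and 128 TPM after it. Il1a had 25.9 and 3.59 TPM after irradiation and was listed at 0 without it, a difference of 3.47 with a limma adjusted p of 0.375. Of the 4 tested genes of this list, 1 was higher under number 1 without overlap and 2 were higher with UVB, against 18.5% and 23.2% of all genes.

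Of the family's other ligands, Il17b, Il17c, Il17d and Il25 were listed at 0 in every library, as was the receptor gene Il17rd. Il17ra, the receptor chain shared by the family, had 34.7 and 12.2 TPM in libraries of number 1 and 1.24 and 3.90 TPM in libraries of number 2. Il17rb was listed at 0 in non-UVB replicate 1 and UVB replicate 2 and had 24.6 TPM in non-UVB replicate 2 and 6.75 TPM in UVB replicate 1. Il17c, the ligand of the receptor that Il17re helps to form, was thus not detected, and Il17rc was detected in UVB replicate 1 alone, at 19.2 TPM, the library that also held Il17re.

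Among receptors and signalling genes upstream of interleukin-17, 2 of 18 tested genes were higher and 3 lower in libraries of number 1 without overlap. The shares of all genes were 18.5% and 22.5%. Il6st, the shared signalling chain for interleukin-6, had 1.04 and 0.534 TPM against 57.3 and 4.36 TPM, and Il1rn, the interleukin-1 receptor antagonist, 335 and 140 TPM against 11.9 and 83.2 TPM. Socs3, a feedback inhibitor of interleukin-6 and interleukin-23 signalling, had 236 and 335 TPM against 256 and 176 TPM. With UVB, 4 of the 18 were higher and 4 lower without overlap, against 23.2% and 9.71% of all genes, and the median was 0.05. Of the signalling genes below the interleukin-17 receptor, 1 of 9 tested was higher and 2 were lower in libraries of number 1 without overlap. The shares of all genes were again 18.5% and 22.5%. Cebpb had 560 and 699 TPM against 584 and 605 TPM, and Tnfaip3 237 and 151 TPM against 119 and 148 TPM. Zc3h12a, an RNase that degrades inflammatory messages, had 10.9 and 8.21 TPM against 27.2 and 45.3 TPM, and Cebpd 12.0 and 12.7 TPM against 33.0 and 48.7 TPM.

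Response genes of skin did not share the order of the cytokines. S100a8 and S100a9, which encode the calprotectin subunits induced by interleukin-17 in keratinocytes and abundant in neutrophils, had 257 and 252 TPM and 170 and 91.6 TPM in libraries of number 1, against 2249 and 1455 TPM and 985 and 736 TPM in libraries of number 2. Of 6 tested genes of this list, 0 were higher and 3 were lower in libraries of number 1 without overlap, against 18.5% and 22.5% of all genes. The median was -0.68. Keratinocyte markers summed to higher values in the same libraries, as given above. S100a8 and S100a9 are themselves on the neutrophil marker list, whose 4 genes summed to 427 and 363 TPM under number 1 and 3255 and 2203 TPM under number 2. The defining neutrophil gene Ly6g was listed at 0 in all 4 libraries. Csf3r, also on this list, was listed at 0 in non-UVB replicate 1. It had 19.2 TPM in UVB replicate 1 and, non-UVB first, 21.5 and 11.5 TPM under number 2. The part of keratinocytes and of neutrophils in the S100a8 and S100a9 values was not tested. Cxcl2, a neutrophil chemokine, had 1014 and 1344 TPM against 1694 and 1466 TPM. Csf3 had 20.8 and 55.7 TPM after irradiation, against 0 and 0.0783 TPM without it, a difference of 5.08 with a limma adjusted p of 0.223. Over all 62 tested list genes, 16 were higher with UVB without overlap and 5 lower, beside 23.2% and 9.71% of all genes. Among the lower, Il6ra had 17.3 and 10.6 TPM without irradiation, against 0.0157 and 0.302 TPM after it. Its difference was -3.66, with a limma adjusted p of 0.223. Traf3ip2 had 53.0 and 39.6 TPM without it, against 0.0206 and 7.26 TPM after it. The difference was -4.01, with a limma adjusted p of 0.480. As given above, more genes reached 1 TPM in the UVB libraries as a whole.

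**Figure D4:**
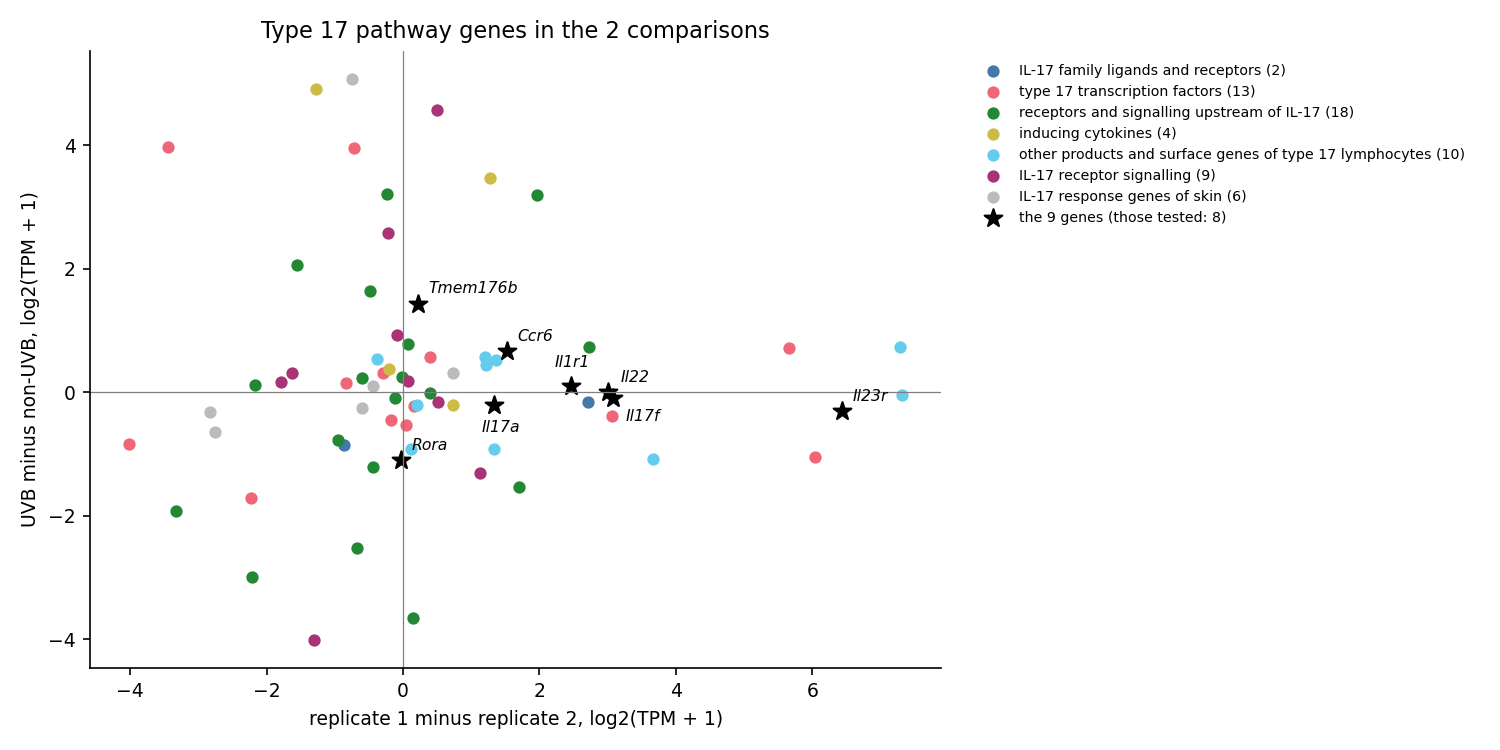
Differences on the log2(TPM + 1) scale for the 62 tested pathway genes, coloured by list, and for the 8 tested genes of the 9 (stars), with replicate 1 minus replicate 2 on the x axis and UVB minus non-UVB on the y axis. The 3 cytokine genes and Il23r lie to the right near 0 on the y axis, from -0.31 to 0.00, while the pathway genes scatter on both axes.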

How the data were processed

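RNA was measured in 4 libraries of cells labelled as skin regulatory T cells. Per the labels' protocols, an ultra-low-input SMARTer kit was used on total RNA, with single-end reads of 100 bp. Tools named in the submitters' processing notes are HISAT2, StringTie and DESeq2, and the build is GRCm38 (mm10); versions, roles and annotation are not given. The authors deposited, per the file headers, a gene table for each library with coverage (mean read depth per base), FPKM and TPM. Rows of 1 gene ID were summed. Genes reaching 1 TPM in 2 or more libraries were tested as log2(TPM + 1), which understates changes of low genes, with limma 3.58.1 in R 4.3.3 and an intensity trend, with Benjamini-Hochberg adjustment over 10286 genes and a threshold of 0.05. The highest coverage to FPKM ratio of a library (the 99th percentile among genes of at least 1 FPKM) gave the depth behind its values and scaled its coverage. TPM keeps no read counts, so no count test or counting interval is given. Read equivalents are coverage times transcript length over read length.

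The 9 genes and the lists were chosen with earlier results of these data known. Named genes were the 9, for each list the 2 most abundant and the 2 with the widest difference between the numbers, and the 5 nearest patterns of Il17a and of Il22. Ribosomal, mitochondrial, haemoglobin, predicted and receptor segment genes were left out there. Csf3, Csf2, Ccl20, Klrb1c, Tmem176a, Il17rc, Il6ra, Traf3ip2, Foxp3, Trdc, Cd4, Trac, Lyz2, Cd14, Csf1r, Csf3r and the genes listed at 0 fall outside this rule and were named after their values were seen. A gene of the transcription factor list is not reported by name here. Il36g was matched through its RefSeq symbol. Transcript numbers and lengths are from GENCODE M21, and promoter sequences from RefSeq, GRCm38.p6. Alternatives changed the pseudocount, filter, unit, scaling and trend, added the other term, and left out each library.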

Additional observations from a re-analysis of the deposited data

How the results depend on the processing

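Limma called 0 genes at an adjusted p under 0.05 for UVB under all 15 alternatives and 0 for the number under all but quantile normalization, which gave 13. Without replicate 1 or 2 of either group the count stayed at 0 in both comparisons, with the spread of the remaining pair standing for the single library too. The lowest adjusted p of any of the 8 tested genes was 0.505 for UVB and 0.0345 for the number, over all alternatives. The fit with a replicate block called 0 genes for UVB. The numbers share no stated litter or batch, with 2 pairs only. Over all genes, the deviations of equally numbered libraries from their group means had a correlation of 0.165. The samples are treated as sharing a number only. The main fit held no block, although 6 of the 8 tested genes lay apart by number without overlap.

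Of the UVB differences, those of Rora and Tmem176b kept their sign under all alternatives but not their size. With 1 library left out, Rora ranged from -1.45 to -0.74 and Tmem176b from 0.72 to 2.15, and after median scaling they stood at -1.71 and 0.83. Leaving out 1 library gave -0.88 to 0.48 for Il17a, -1.65 to 1.45 for Il17f, -1.83 to 1.84 for Il22, -3.79 to 3.17 for Il23r, -1.48 to 1.69 for Il1r1 and -0.33 to 1.66 for Ccr6. These ranges take in the difference between the numbers, because the groups are then unequal in the numbers. Quantile normalization turned Il17f to 0.42, Il22 to -0.066 and Il1r1 to -1.05. Median scaling turned Il22 to -0.60 and Il1r1 to -0.50. With a pseudocount of 5, Il22 stood at -0.0035 and Il1r1 at -0.061, and with a pseudocount of 0.1 Il23r stood at 0.0296. Il22 was also at -0.0289 from FPKM, -0.0289 from coverage scaled to depth, an alternative added once the data had been seen, and -0.0876 without haemoglobin and mitochondrial genes. The causes were not tested. The median of all genes moved from 0.26 to -0.19 after quantile normalization and to -0.35 after median scaling.

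For the number, 6 of the 8 genes kept their sign under all alternatives that tested them. The size for low genes moved with the pseudocount, with Il23r at 8.49 for 0.1 and 4.37 for 5, and Il1r1 at 1.63 for 5. Ccr6 ranged from 0.96 to 2.09 with 1 library left out. Rora turned to 0.0501 after quantile normalization and ranged from -0.92 to 0.87 with 1 library left out, and Tmem176b turned to -0.0357 after median scaling and ranged from -1.11 to 1.54. Il1r1 was not tested from coverage scaled to depth, where it missed the filter. Few reads over the gene limit the values of Il23r in the libraries of number 2 and of Il17re in 3 libraries.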
